A study of Danio rerio with 4 samples.

Results

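The regions described here are isolated peaks of open chromatin, each lying more than 50000 bp from the peak before it and from the peak after it on the same chromosome. They were chosen by position alone, from a matrix of 50394 peaks. Peaks within 1000000 bp of the first or last peak of a chromosome and those of chromosome 4 from position 30000000 on were set aside, which left 47553 eligible peaks. Of these, 1581 were isolated, or 3.32% of the eligible peaks. The other 45972 eligible peaks serve as the comparison.

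The matrix comes from single-cell ATAC-seq, in which a transposase inserts adapters into accessible DNA of nuclei held in droplets, and a barcode added in each droplet traces every fragment to its nucleus. Nuclei were prepared from non-cardiomyocytes (nonCMs) of wild type zebrafish hearts labelled 0, 2, 7 and 14 days post injury, the injury being the resection of about 20% of the ventricular apex. The study describes these ventricles as uninjured or regenerating, although the label texts give the resection for all libraries alike. Each time point had 1 library. The rows of the matrix are 2737 nuclei that the labels tie to none of the 4 libraries, so all rows were 1 pooled sample, no time point was compared and no p-value was computed. Every value was 0 or 1, and a 1 is called an open call below: the peak was called open in that nucleus. Nuclei had a median of 1147 open peaks (77 to 10959). Intervals are at 95%. Those of medians and of shares of peaks reflect the spread over peaks taken as independent, although all peaks were measured in the same nuclei. The other intervals cover counting error only.

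Open chromatin marks DNA that nucleosomes leave accessible to transcription factors, mainly at promoters and at distal elements such as enhancers and insulators. Distal elements can act on a gene across long stretches of DNA, and enhancers of developmental genes often lie in gene-poor regions. In the regenerating zebrafish heart, distal elements are known to switch on gene programs in epicardial, endocardial and other nonCMs after injury. No genome or annotation of the build of the peaks, danRer11 per the submitters' processing notes, was used here, so promoters and distal elements among the isolated peaks were not told apart and clusters of nuclei carry numbers in place of cell type names.

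Isolated peaks were usually far from the next peak on one side and farther on the other. Their smaller gap had a median of 71663 bp, with quartiles of 58529 and 100058 bp, and their larger gap a median of 138587 bp. Over all eligible peaks the median smaller gap was 5718 bp. A total of 396 isolated peaks had more than 100000 bp on both sides, and 61 had more than 200000 bp. They were spread over the whole genome: each of the 25 chromosomes held between 38 (chromosome 4) and 97 (chromosome 7). Their share of eligible peaks ran from 2.02% on chromosome 23 to 4.96% on chromosome 1, and their density was 1.27 ± 0.136 per Mb (SD over 25 chromosomes). Of the 1262 windows of 1 Mb with eligible peaks, 850 (67.4%) held at least 1 isolated peak and 74 held 4 or more. With each chromosome divided by position into 4 equal parts, 3.61%, 2.91%, 2.82% and 4.12% of their eligible peaks were isolated, so the outer parts had the larger shares even with the chromosome ends set aside.

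Many isolated peaks had another isolated peak as a neighbour. Of the 1581, 720 (45.5%) stood singly and 861 (54.5%) stood in 330 strings of 2 or more in a row. The gap between neighbours is shared, so a neighbour of an isolated peak already meets the limit on that side. The rule thus favours strings, and no expected share was computed. Most strings, 210 of them, were pairs. The longest string had 8 isolated peaks, at chr12:40302078-41319763, inside a stretch of 1712 kb between the nearest peaks that were not isolated. Its peaks were open in 47, 10, 65, 13, 36, 25, 10 and 13 nuclei in order of position, so openness in the string varied from peak to peak, with the lowest value at 2 of the 8. A string of 7 at chr9:48232420-48819604 ranged from 4 to 91 open nuclei. Single isolated peaks had a median of 19 open nuclei (17 to 21) and those in strings of 3 or more had 17 (15 to 18), with overlapping intervals.

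Isolated peaks were open in fewer nuclei than other peaks. The median isolated peak was open in 18 nuclei (interval 16 to 19; quartiles 10 and 42), or 0.658% of nuclei. The median of the other eligible peaks was 35 nuclei (35 to 36; quartiles 17 and 84), or 1.28%. At least 1% of nuclei were open at 556 isolated peaks (35.2%), against 58.2% of the other peaks, and at least 10% of nuclei at 38 isolated peaks (2.40%), against 5.30%. One isolated peak had no open call in any of the 2737 nuclei. The isolated median was lower on 25 of 25 chromosomes, with differences from -0.859 to -0.329 percentage points of nuclei. In all, isolated peaks held 67110 open calls, 1.92% of those at eligible peaks, from 3.32% of the peaks.

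The number of open nuclei fell from class to class of distance, below the limit as well as across it. Peaks with a neighbour within 2 kb had a median of 50 open nuclei (49 to 52). With the nearer neighbour at 2 to 5, 5 to 10, 10 to 20 and 20 to 50 kb, the medians were 38, 31, 27 and 24. The isolated peaks, beyond 50 kb, came last at 18. Open calls per kb of peak fell in the same order, from 261 within 2 kb to 162 at 20 to 50 kb and 127 at isolated peaks. Among the isolated peaks themselves the trend was nearly flat: Spearman's rho of smaller gap and open nuclei was -0.06 over the 1581 peaks, against -0.21 over all 47553 eligible peaks, and the 61 peaks beyond 200000 bp on both sides also had a median of 18. These correlations are across peaks measured in the same nuclei, and peaks are not independent replicates. The isolated peaks were also cut on the smaller gap, at 50019 to 505016 bp against 2 to 505016 bp over all eligible peaks. A narrower range can by itself weaken a rank correlation. The rho values therefore do not show whether the trend ends at the limit.

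**Figure D1:**
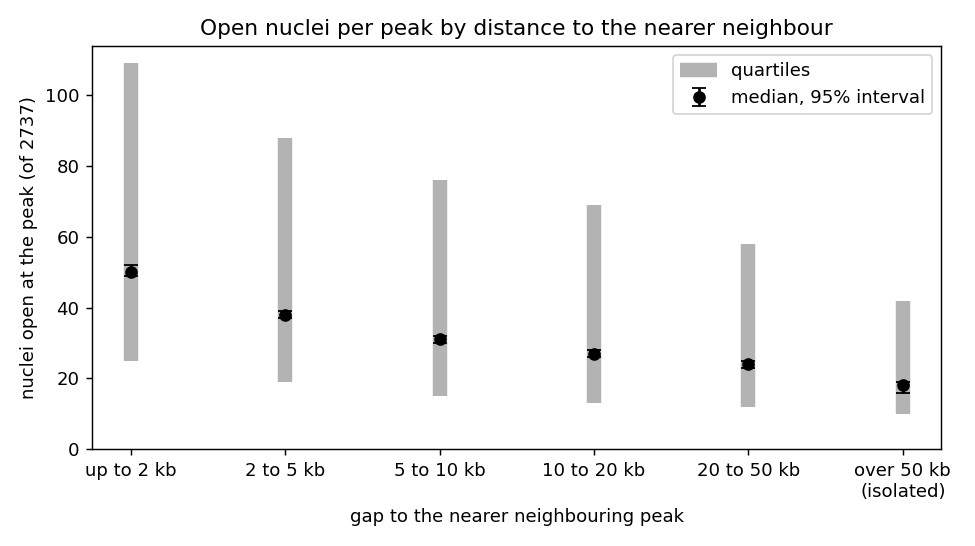
Number of nuclei open per peak, of 2737 (vertical axis), for eligible peaks in classes of the gap to the nearer neighbouring peak (horizontal axis); points are medians with 95% intervals and grey bars span the quartiles. The median falls from 50 nuclei within 2 kb to 18 at isolated peaks, while the quartile ranges of all classes overlap.

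The peaks closest to the limit on both sides had overlapping values. Just inside it, chr14:37184684-37184979 (smaller gap 50019 bp) was open in 26 nuclei, chr14:41091859-41092158 (50032 bp) in 27 and chr22:36967635-36967942 (50054 bp) in 21. Just outside it, chr16:4694885-4695429 (49957 bp) was open in 149 nuclei, chr19:28048215-28048419 (49949 bp) in 5 and chr25:19936915-19937155 (49940 bp) in 24. The 3 peaks outside thus spanned a wider range than the 3 inside.

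Isolated peaks were also narrower. Their median width was 293 bp (284 to 300), against 324 bp (322 to 325) for the other eligible peaks. Unlike openness, width did not fall steadily with distance. From the class within 2 kb to that at 20 to 50 kb, the median widths were 315, 323, 337, 325 and 313 bp. Among peaks open in at least 10 nuclei the difference of -31 bp shrank to -12 bp. Of the isolated peaks, 239 (15.1%) had the smallest width among eligible peaks, 200 bp, against 9.63% of the others. In the class at 20 to 50 kb this share was 12.6%. The median width was lower on 23 of 25 chromosomes and higher on chromosomes 12 and 18. Width and open nuclei went together in both sets, with a Spearman's rho of 0.83 over the isolated peaks and 0.81 over the others. The difference in open nuclei was also present at like widths: isolated peaks had the lower median in 7 of 7 classes of width, at 0.585 to 0.835 of the median of the others. Among peaks of 301 to 400 bp, isolated peaks had a median of 24 open nuclei (22 to 26) and the others 41 (40 to 42). Among the 52 isolated peaks over 700 bp the median was 204.5 (124 to 249), against 245 (237 to 253), and the intervals overlapped.

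**Figure D2:**
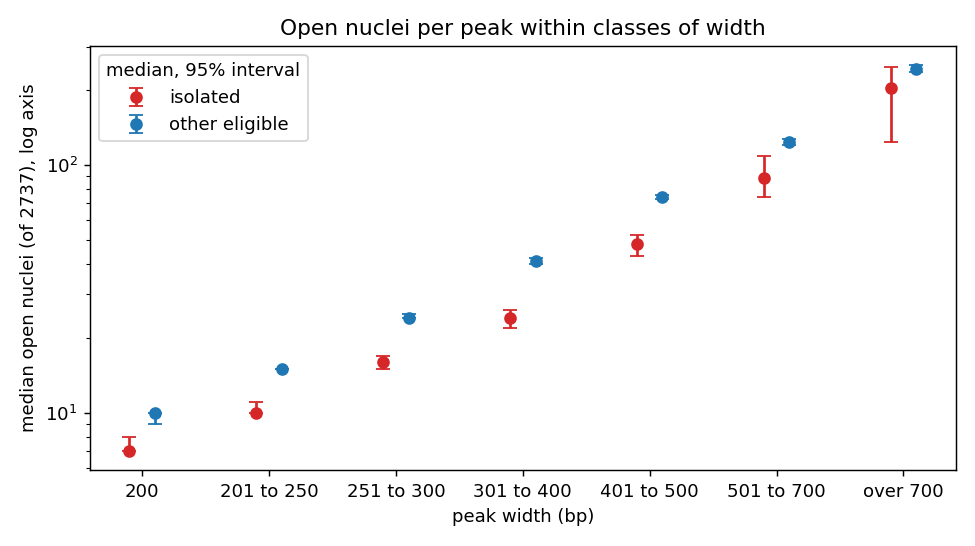
Median number of open nuclei per peak (vertical axis, log scale) by class of peak width in bp (horizontal axis) for isolated peaks (red) and the other eligible peaks (blue), with 95% intervals. The isolated median is lower in all 7 classes, from 7 against 10 nuclei at 200 bp to 204.5 against 245 over 700 bp, where the intervals overlap.

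A few isolated peaks were open in a large share of nuclei. The most open was chr5:45138667-45139634, 967 bp wide and 65.4 and 91.0 kb from its neighbours, which was open in 728 nuclei or 26.6% (24.95% to 28.3%). It was open in 27.4%, 26.3%, 31.1% and 22.4% of the nuclei in the 4 runs of rows, which are blocks of the matrix in which the barcodes are sorted anew and which the labels tie to no time point. The median number of open peaks per nucleus in these runs was 1382.5, 1294, 1230 and 898.5, and the run with the fewest had the lowest share. Next were chr18:35842218-35842808 with 652 open nuclei, chr16:20294129-20294808 with 651, chr7:4124871-4125462 with 639 and chr12:11306255-11307055 with 565. The remaining peaks of the 10 most open were chr20:4793326-4793968 (509), chr7:48395849-48396630 (493), chr18:5111317-5111919 (479), chr5:55751548-55752536 (458) and chr5:53581096-53581789 (449). All 10 were wide for isolated peaks, at 590 to 988 bp. Widely open peaks were also found far from any neighbour: chr5:53581096-53581789 had 243 kb or more on each side, and chr18:5111317-5111919 had 660 kb before it and 136 kb after it.

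The 5 peaks with the largest smaller gap were open in 9 to 81 nuclei. The extreme was a pair on chromosome 14 separated by 505 kb. The first, chr14:13453176-13453487, had 971 kb free of peaks before it and was open in 81 nuclei (2.96%, 2.36% to 3.67%), in 12, 28, 26 and 15 nuclei of the 4 runs. The second, chr14:13958503-13958788, had 509 kb after it and was open in 39. The others were chr6:56935679-56935937 (28 nuclei), chr12:12579309-12579509 (9) and chr25:26232020-26232351 (28). Of the 5, 4 were therefore above the median of 18 for isolated peaks, and each was open in at least 1 nucleus of every run.

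Nuclei were grouped into 17 clusters from the peaks that were not isolated, so that the isolated peaks had no part in making the clusters. A total of 11 clusters held at least 100 nuclei, together 2408. The isolated peaks' share of open calls differed between these clusters by up to 1.70-fold (1.65 to 1.76). That interval takes the highest and the lowest cluster as given and leaves out the variation between nuclei. It was 2.46% in cluster 3, 2.35% in cluster 2, 2.27% in clusters 4 and 7, and 2.22% in cluster 9. In the other 6 it was lower, at 1.78% in cluster 11, 1.72% in cluster 10, 1.62% in cluster 1, 1.48% in cluster 6, 1.47% in cluster 8 and 1.44% in cluster 5. The lowest of the upper 5 was cluster 9 (2.16% to 2.28%), and the highest of the lower 6 was cluster 11 (1.72% to 1.84%). The clusters were divided after being ordered by this same share, so the gap between these intervals is a description and not a test. The medians over single nuclei gave the same division, at 2.23% to 2.43% in the upper 5 clusters and 1.40% to 1.76% in the lower 6. Single nuclei overlapped, with quartiles of 1.93% and 2.57% in cluster 9 and 1.49% and 2.12% in cluster 11. Of the clusters with fewer than 100 nuclei, cluster 15 (44 nuclei) had 2.53% (2.41% to 2.65%), a higher value than any of the 11. Cluster 13 (94 nuclei, 2.17%) and cluster 17 (21 nuclei, 1.92%) lay between the upper 5 and the lower 6. Clusters 12, 14 and 16, at 1.71%, 1.57% and 1.75%, lay within the range of the lower 6.

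**Figure D3:**
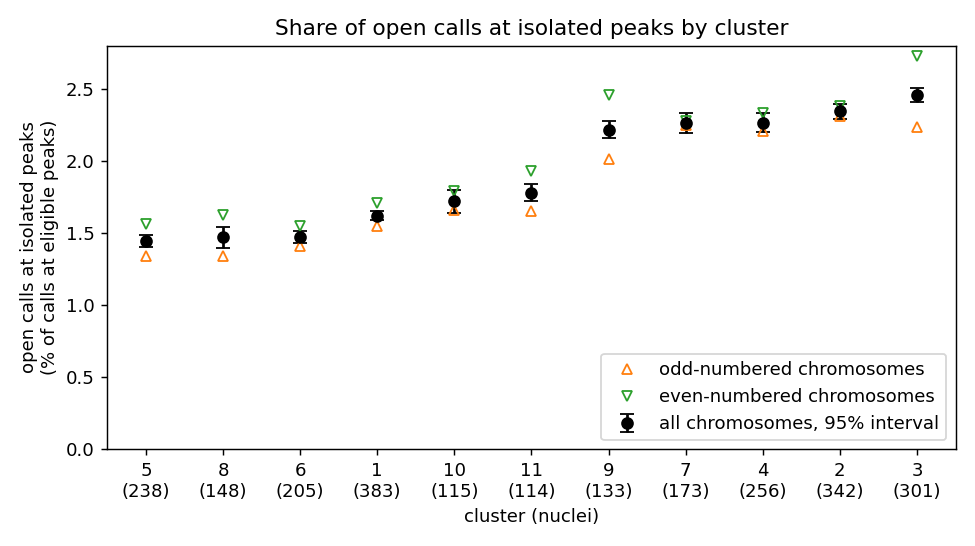
Open calls at isolated peaks as a percentage of open calls at eligible peaks (vertical axis) in the 11 clusters of at least 100 nuclei (horizontal axis, number of nuclei in brackets), over all chromosomes with 95% intervals and over odd-numbered and even-numbered chromosomes alone. Clusters 9, 7, 4, 2 and 3 lie between 2.22% and 2.46% over all chromosomes and the other 6 between 1.44% and 1.78%.

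The upper 5 clusters were picked from all calls, so the splits below, which are parts of those same calls, only describe the division. On odd-numbered chromosomes the upper 5 clusters had 2.02% to 2.32% and the lower 6 had 1.34% to 1.66%. On even-numbered chromosomes the values were 2.28% to 2.73% and 1.55% to 1.93%. In any run with at least 20 nuclei of a cluster, the share was 2.14% to 2.49% in the upper 5 and 1.37% to 1.85% in the lower 6. The same clusters stayed apart among nuclei with fewer than 1000 open peaks, at 2.25% to 2.67% against 1.35% to 1.91%, and among nuclei with at least 1000, at 2.19% to 2.44% against 1.37% to 1.76%. The value of 2.67% is that of cluster 9, which had only 11 nuclei with fewer than 1000 open peaks. Cluster 6, of the lower 6, also had only 11 such nuclei. Over the 11 clusters, Spearman's rho of the isolated share and the median number of open peaks per nucleus was -0.22. That median ran from 668 (cluster 4) to 1758 (cluster 9) in the upper 5 and from 710 (cluster 8) to 1656 (cluster 6) in the lower 6. A part of depth in the division was not tested. Some clusters came largely from 1 run, with 66.2% of cluster 9 in the second run, 64.2% of cluster 8 in the fourth and 57.8% of cluster 7 in the third.

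The upper 5 clusters were not alike in other respects. In clusters 2, 7 and 4, peaks open in fewer than 50 of the 2737 nuclei took 8.03%, 9.49% and 12.9% of open calls. In clusters 3 and 9 they took 26.4% and 28.3%, and in the lower 6 clusters 15.1% to 23.5%. The larger isolated share was thus found both in the 3 clusters with the smallest and in the 2 with the largest share of calls in peaks open in fewer than 50 nuclei. It was also present at each level of openness, since in 4 of 4 classes of peaks by open nuclei the upper 5 clusters had the larger isolated share. Among peaks open in fewer than 20 nuclei, isolated peaks took 5.61% to 7.06% of calls in the upper 5 and 3.03% to 5.24% in the lower 6. Among peaks open in 100 or more nuclei they took 1.41% to 2.09% and 1.16% to 1.34%. These 5 clusters were picked for their isolated share, so the repeats in other subsets are a description of these nuclei.

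Peaks with a neighbour somewhat nearer than 50 kb divided the clusters in the same way. Peaks with the nearer neighbour at 20 to 50 kb took 8.67% to 9.77% of calls in the upper 5 clusters and 6.75% to 7.56% in the lower 6, and those at 10 to 20 kb took 15.98% to 16.7% and 13.9% to 14.9%. Nearer peaks did not divide them: the ranges overlapped at 5 to 10 kb (21.3% to 24.5% and 22.6% to 23.6%) and within 2 kb (23.2% to 30.7% and 26.1% to 29.6%). At 2 to 5 kb the upper 5 clusters had the smaller shares, at 19.2% to 25.005% against 24.99% to 27.7%, with an overlap only at the edge. Since shares of calls sum to a whole, a larger share at distant peaks means a smaller share elsewhere.

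Single isolated peaks differed in how far they were tied to 1 cluster. For each of the 324 isolated peaks open in at least 50 nuclei, the level in a cluster was its open calls per 1000000 calls of that cluster (CPM), and the cluster ratio was the highest ratio, over the 11 clusters, of that level to the level in all other nuclei, with 10 CPM added to both. The median ratio was 2.19 (quartiles 1.84 and 2.72), and the range was 1.25 to 9.46. The highest level was most often in cluster 2, for 93 peaks (28.7%, 23.8% to 34.0%), and in cluster 7, for 67 (20.7%, 16.4% to 25.5%). Of the 18011 other eligible peaks open in at least 50 nuclei, which had a part in making the clusters, cluster 2 led 16.1% and cluster 7 led 13.4%. To set isolated and other peaks side by side, the clusters were remade from the even-numbered chromosomes for peaks on odd-numbered ones, and the reverse. The ratio then reached 4 at 27 of the 324 isolated peaks (8.33%, 5.56% to 11.9%), and the background over the 18335 eligible peaks open in at least 50 nuclei was 11.6%. The interval of the isolated share includes the background. The median ratio was lower at isolated peaks, at 2.13 (2.04 to 2.22) against 2.25 (2.24 to 2.26). At like openness the share with a ratio of at least 4 was lower at isolated peaks in each of the 5 classes of open nuclei. It was 14.9% against 17.7% at 50 to 74 open nuclei and 5.71% against 11.1% at 100 to 149, and the isolated interval includes the value of the others in every class. The median was lower in 4 of the 5 classes, at 2.18 (2.04 to 2.46) against 2.50 at 50 to 74 open nuclei, and higher from 250 open nuclei up, at 2.05 (1.92 to 2.25) against 1.93.

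Among the 324 isolated peaks open in at least 50 nuclei, the one most tied to a cluster was chr2:5649927-5650472, open in 61 nuclei. It was open in 51 of the 301 nuclei of cluster 3 (16.9%, 12.9% to 21.7%) and in 0.411% of the 2436 other nuclei, a cluster ratio of 9.46. The peak was also open in 9.09% of the 44 nuclei of cluster 15. Over the 4 runs it was open in 6, 5, 34 and 16 nuclei, so it was most frequent in the third. A region that overlaps this peak is paired with fgf12a in a region list of the study. The study describes that list as open regions active in epicardial cells and fibroblasts that overlap known candidate regeneration enhancers. It is therefore not a general annotation of peaks. The gene fgf12a is a member of the fibroblast growth factor homologous factors, which in mammals act inside the cell on voltage-gated sodium channels. The distance to that gene was not measured here.

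Other isolated peaks were concentrated in other clusters. The peak chr22:11800477-11801043 was open in 18.5% of the 238 nuclei of cluster 5 (13.8% to 24.01%) and in 0.600% of the others, with a ratio of 9.45. It was also open in 5.21% of the 96 nuclei of cluster 12. The peak chr7:71203486-71203945, with 107 kb or more on each side, was open in 25.4% of the 114 nuclei of cluster 11 (17.7% to 34.4%) and in 1.37% of the others, with a ratio of 7.66. The peak chr16:28016168-28016666 was open in 15.6% of the 173 nuclei of cluster 7 (10.5% to 21.9%) and in 1.44% of the others. It was also open in 14.3% of the 21 nuclei of cluster 17, 4.69% of cluster 4 and 3.80% of cluster 2. Clusters of the upper 5 and of the lower 6 thus both had isolated peaks open in a far larger share of their nuclei than of the rest. These 5 peaks were taken for their ratios, which are therefore descriptions.

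The fifth, chr12:40750685-40751280, belongs to the longest string of isolated peaks. It was open in 14.95% of the nuclei of cluster 3 (11.1% to 19.5%) and in 0.821% of the others, with a ratio of 6.85. It was also open in 6.77% of the nuclei of cluster 9. In the region list of the study described above, a region that overlaps it is paired with ppp2r2d, a regulatory subunit of protein phosphatase PP2A. A region that overlaps the first peak of the same string is paired with bnip3, a receptor for mitophagy on the outer mitochondrial membrane. Another overlaps the peak just inside the distance limit that was open in 27 nuclei, and is paired with drp2, a relative of dystrophin. The list is not a general annotation of peaks, and the distances to these genes were not measured here.

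The 10 most open isolated peaks had cluster ratios of 1.44 to 2.39, around the median of 2.19 for all 324. For chr5:45138667-45139634 the level was highest in cluster 2, where 40.9% of nuclei were open (35.7% to 46.4%) against 24.6% of all others, with a ratio of 2.34. The median depth was 923.5 open peaks in cluster 2, 1204 in the other nuclei and 1283.5 in the nuclei open at this peak. The ratio of chr7:48395849-48396630 was 1.44, the lowest of the 10, and that of chr5:55751548-55752536 was 2.39, the highest. Cluster 2 had the highest level for 9 of the 10, a picked list of peaks measured in the same nuclei. It also led 57.5% of the 829 other eligible peaks open in at least 449 nuclei, so widely open peaks in general were often led by cluster 2.

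**Figure D4:**
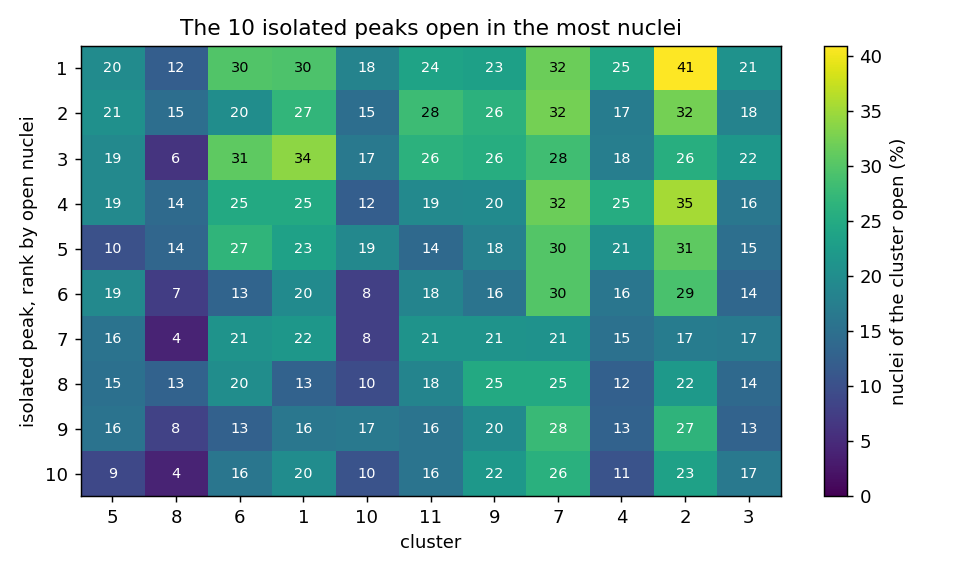
Percentage of the nuclei of each cluster (horizontal axis, in the order of the isolated share of calls) that were open at the 10 isolated peaks open in the most nuclei (vertical axis, rank 1 with 728 nuclei to rank 10 with 449), not corrected for depth. The first peak is open in 40.9% of cluster 2 and 12.2% of cluster 8, and none of the 10 is closed in any cluster.

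An isolated peak and its neighbour were open in the same nuclei slightly more often than their separate rates would give. The expected number of nuclei open at both came from the rates of both peaks in each cluster and the depth of each nucleus. Over 720 pairs of an isolated peak and its neighbour, each peak open in at least 20 nuclei, 3510 joint openings were observed and 3197 expected, a ratio of 1.098 (1.06 to 1.13). The ratio was above 1 on 23 of 25 chromosomes. The same peaks paired across chromosomes gave 1.03 (0.994 to 1.07), and this interval overlaps narrowly with that of the neighbours. Their ratio was above 1 on 16 of 25 chromosomes. At 50 to 100 kb the ratio was 1.12 (1.08 to 1.17) for pairs with an isolated peak and 1.06 (1.04 to 1.09) for pairs without one, and the intervals overlap. Beyond 100 kb it was 1.06 (1.002 to 1.12) and 1.05 (1.01 to 1.0997), both values within the interval of the pairs across chromosomes. For these distant pairs with an isolated peak the ratio was above 1 on 17 of 25 chromosomes. At 50 to 100 kb that count was 25 of 25. Pairs of 2 isolated peaks had a ratio of 1.17 (1.08 to 1.27) over 106 pairs. Close pairs without an isolated peak had larger ratios, 1.32 within 2 kb and 1.16 at 10 to 20 kb. Some peaks are in 2 pairs, and the intervals do not include that.

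**Figure D5:**
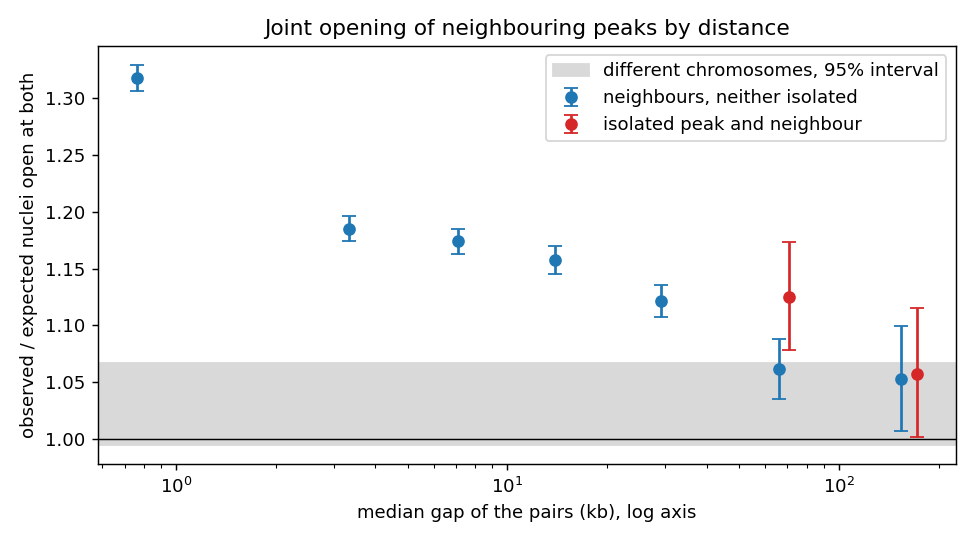
Ratio of observed to expected nuclei open at both peaks of a neighbouring pair (vertical axis) by the median gap of the pairs in kb (horizontal axis, log scale), for pairs with an isolated peak (red) and without one (blue), with 95% intervals; red points are set slightly to the right. The ratio falls from 1.32 within 2 kb to 1.05 beyond 100 kb without an isolated peak, and is 1.12 and 1.06 with one, while the grey band marks peaks paired across chromosomes (0.994 to 1.07).

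Every nucleus was open at some isolated peak. The median nucleus had 21 of them open (1 to 199), and 90% of nuclei had between 7 and 55. From the fifth of nuclei with the fewest open peaks to the fifth with the most, the isolated share of calls was 2.12%, 2.02%, 1.92%, 1.83% and 1.89%. In the 4 runs of rows it was 1.85%, 1.81%, 1.99% and 2.02%, a narrower range than that between clusters. In each run the mean share of nuclei open at isolated peaks was 0.535 to 0.598 of that at the other peaks.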

How the data were processed

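Wild type zebrafish nonCM nuclei from 4 libraries, 1 per time point, were profiled by single-cell ATAC-seq. According to the methods of the study, cellranger-atac was run, the time points were merged, SnapATAC was used, nuclei outside limits on log UMI and clusters of cardiomyocytes and putative doublets were removed, and MACS called peaks on subclusters. The sources used here do not say if the deposited matrix uses that peak set. The submitters' processing notes name FastQC, Cell Ranger ATAC and danRer11. The deposited values, described by the authors as raw counts, were all 0 or 1, so the authors' matrix holds binarized open calls, another unit than counts, and no count test was used. All columns were used.

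Peaks, members and lists were chosen with earlier results of these data known. Barcodes numbered 2731, and 6 of them were in 2 rows each. No doublet caller was run, since the study removed putative doublet clusters. The 4 runs of rows held 430, 715, 748 and 844 nuclei. Intervals are exact Clopper-Pearson (shares), exact Poisson (joint openings) or from binomial order statistics (medians). The ratio between clusters has an interval from the counts of both clusters. PCR duplicates and shared nuclei are outside all of them. Clusters used peaks that were not isolated and were open in at least 10 nuclei, term frequency weighting scaled to 10000, truncated SVD with 15 components, leaving out 1 correlated with log depth at 0.5 or more, 15 neighbours and Leiden at resolution 1 (leidenalg 0.10.2, scikit-learn 1.9.0, scipy 1.17.1). The cluster ratio and joint opening procedures were tested on simulated data. The joint opening, the shares of calls by cluster and the clusters remade by chromosome set were added after the data were seen. Named peaks are the 10 isolated peaks open in the most nuclei, the 5 with the largest smaller gap, the 5 with the largest cluster ratio among those open in at least 50 nuclei, and the 3 on each side of the distance limit. The peaks of the longest strings were named after their values were seen. Gene symbols come from a region list of the study, matched by overlap, and no value of that list was used. Widths are end minus start, and coordinates are those of the matrix. Marker genes, start sites, GC content, motifs and peak sequences were not analysed here, because no danRer11 genome or annotation was used.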

Additional observations from a re-analysis of the deposited data

How the results depend on the processing

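The lower openness of isolated peaks kept its direction in every alternative run. The difference of medians was -0.621 percentage points. It was -0.897 in nuclei with at least 1000 open peaks, and within classes of width from 200 bp up it was -0.110, -0.183, -0.292, -0.621, -0.968, -1.28 and -1.48. The difference in width of -31 bp shrank to -12 bp among peaks open in at least 10 nuclei. The number of isolated peaks, 1581, was 2326 with a limit of 40000 bp, 723 with 75000 bp and 396 with 100000 bp. Dropping all peaks with fewer than 10 open nuclei before measuring gaps left 1651 isolated among 42940 eligible peaks (3.84%). Dropping those below 1% of nuclei left 1986 among 27321 (7.27%), against 3.32% in the main run. Only 556 of the 1581 reached that 1%, so most of the 1986 were other peaks. The median cluster ratio of 2.19 was 2.11 at resolution 0.5 and 2.07 with 30 components. The following alternatives were chosen after seeing the data. The ratio of the highest to the lowest cluster share, 1.70, was 1.60 with a limit of 40000 bp, 2.17 with 100000 bp and 1.78 in nuclei with at least 1000 open peaks. It was 1.65 to 1.76 under the other 5. The joint opening of an isolated peak and its neighbour, 1.098, was 1.087 to 1.104 under 4 alternatives.

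No paired analysis was possible because the rows of the matrix carry no library and each time point has 1 library. Leaving out replicates does not apply. Alternatives for start sites, introns, GC content and motifs were not run. Of the isolated peaks, only the 324 open in at least 50 nuclei (20.5%) were compared between clusters one by one.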
